A study of Nothobranchius furzeri with 20 samples.

Results

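From 26739 gene identifiers counted in killifish liver, 25 were chosen by a rule. Each was more than 2 times as high in each of 5 libraries from 27-week fish as in any of the other 15 libraries of the study. The 5 libraries bear the title numbers JM132 to JM136 and are called here the lower-numbered run. The genes were chosen from these very values. A gene was kept when its mean over all 20 libraries was 1 or more and under 1000 CPM (read counts scaled to library size with edgeR's TMM factors) and its exercised and unexercised means at 9 weeks lay within 1.3-fold. Its lowest value in the run also had to exceed 2 times its highest value elsewhere, with 0.5 CPM added on both sides of each ratio. The limit on the 9-week means left 25 of the 74 genes that met the other terms. Fewer than 150 genes met the rule, so all 25 are described, in the order of that ratio (ranks 1 to 25). How far the run stood above the rest therefore follows from the choice and is given as a description.

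All livers came from male turquoise killifish (Nothobranchius furzeri) of the strain MZM-04/10p, and RNA was sequenced after TruSeq v2 library preparation. The 27-week fish with swim-tunnel exercise gave 10 libraries, which fall into 2 runs of title numbers, JM132 to JM136 and JM140 to JM144 (the higher-numbered run), with the same labels. The other livers were those of 9-week fish with swim-tunnel exercise (5 libraries) and of 9-week fish with no exercise (5 libraries). No unexercised fish of 27 weeks were analysed here, and nothing in the labels tells whether the libraries come from separate fish. The p-values therefore reflect library-to-library spread alone, which may be technical. Whether the runs differ by a batch or by the animals cannot be told apart, since the labels give them no other distinction.

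The turquoise killifish lives in seasonal pools, and its very short life makes it a model of vertebrate ageing. The liver sets the levels of most plasma proteins, stores and releases fuel, makes bile and holds immune, vascular and bile duct cells besides hepatocytes. A swim tunnel makes fish swim against a current, and the study set exercised against resting livers and older against younger ones. No deposited file links the identifiers to gene names, and 0 of the 25 were found in the RefSeq gene table used here, so no function, cell type or sequence is given for them. The labelled tissue could not be checked against liver markers for the same reason. A rise in bulk RNA may come from more cells of a type or from more RNA per cell, and these cannot be told apart.

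Library totals lay between 28228110 and 44606073 counts in the lower-numbered run, between 24829234 and 34898121 in the higher-numbered run, between 33968094 and 38790578 in exercised 9-week livers and between 22422152 and 38444704 in unexercised 9-week livers. The TMM factor moved with the run. It was 1.24 ± 0.235 in the lower-numbered run, 0.867 ± 0.0218 in the higher-numbered run, 0.894 ± 0.0228 in exercised 9-week livers and 1.06 ± 0.120 in unexercised 9-week livers (SD, n = 5 each). Libraries JM135 and JM136 had the largest factors, 1.52 and 1.47. A larger factor lowers every scaled value of a library. Libraries JM132, JM133 and JM134 had factors of 1.05, 1.14 and 1.04, below the 1.21 of unexercised library JM125. All 5 factors of the run were above the highest of the higher-numbered run, 0.890, and of exercised 9-week livers, 0.924. When library totals replaced TMM, 21 of the 25 genes had a ratio over 2, with 1.92 the lowest. Only 12 of the 25 then met the whole rule.

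The 25 genes were mostly of low abundance. Their mean in the lower-numbered run had a median of 12.5 CPM over genes, from 3.42 to 1014 CPM, and their mean in the other 15 libraries had a median of 3.29 CPM, from 0.187 to 12.2 CPM. The run's mean was 4.28 times that of the others at the median gene (0.5 CPM added), at least 3 times in 21 genes and at least 5 times in 9. Together they made up 0.199% ± 0.0680 of all counts in the lower-numbered run, 0.00996% ± 0.00163 in the higher-numbered run, 0.00816% ± 0.000702 in exercised 9-week livers and 0.0113% ± 0.00202 in unexercised 9-week livers (SD, n = 5 each). In the lower-numbered run the first-ranked gene took most of that share, which was 0.0700% ± 0.0133 (SD, n = 5) for the other 24. Their summed level was 567 ± 74.7 CPM in the lower-numbered run, 107 ± 10.3 CPM in the higher-numbered run, 87.7 ± 5.87 CPM in exercised 9-week livers and 103 ± 10.7 CPM in unexercised 9-week livers.

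**Figure D1:**
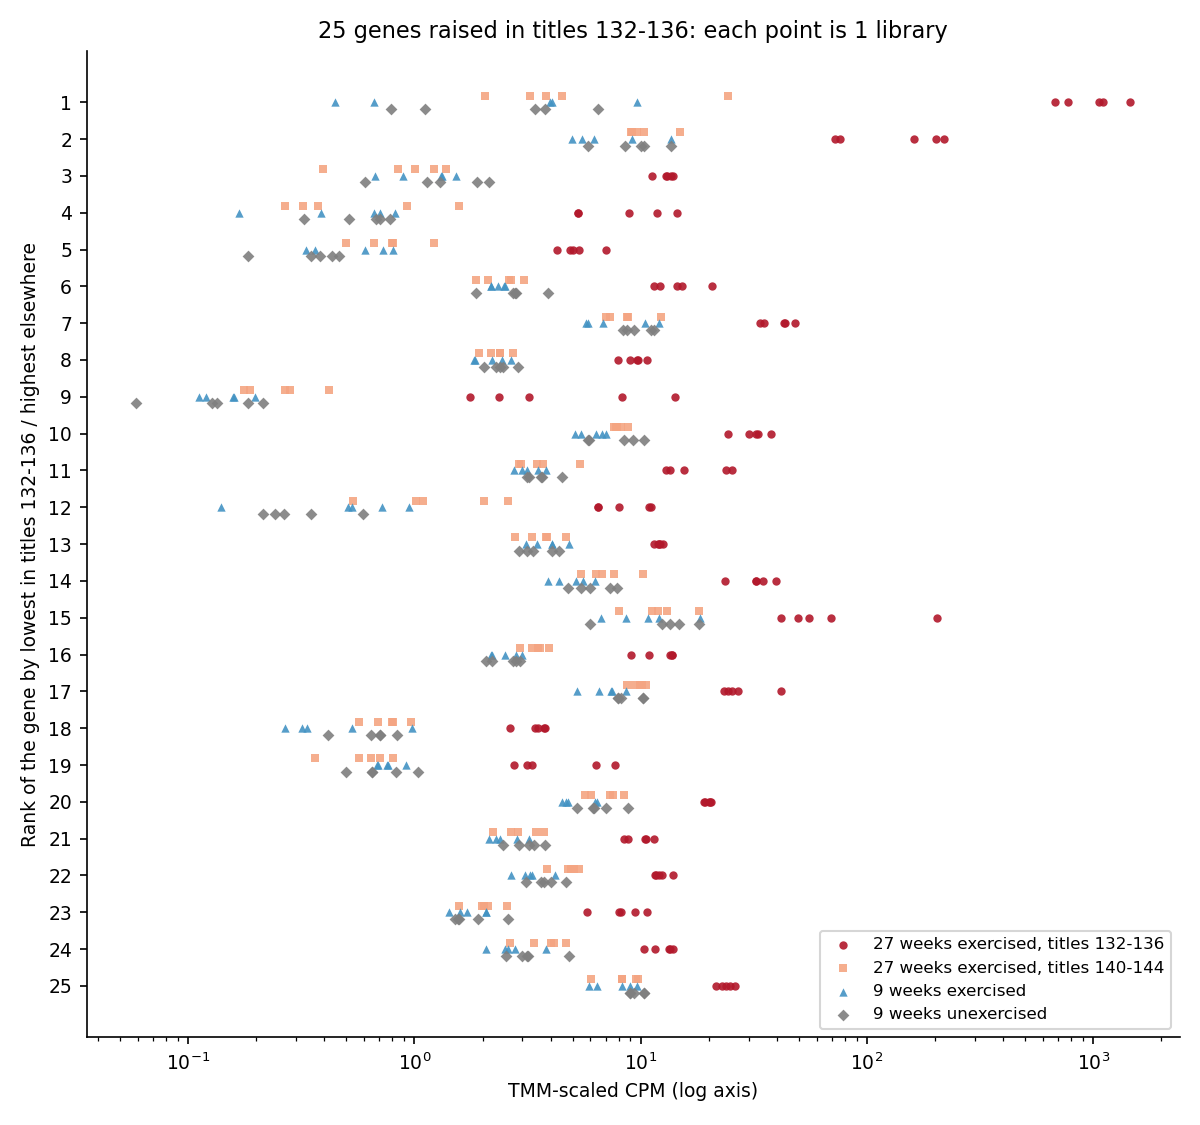
TMM-scaled CPM (log axis) of the 25 genes, ordered from rank 1 at the top, with 1 point per library and 1 colour and symbol per set of 5 libraries. The points of titles JM132 to JM136 lie to the right of all others in each row, as the rule requires, while the other 3 sets overlap in most rows.

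The first-ranked gene stood far from the rest of the list. Nfu_g_1_007386 had 1061, 1105, 677, 1454 and 775 CPM in libraries JM132 to JM136. It had 4.48, 24.3, 3.83, 2.06 and 3.24 CPM in libraries JM140 to JM144. Exercised livers at 9 weeks had 4.06, 3.96, 0.661, 9.64 and 0.446 CPM, and unexercised ones 3.76, 1.11, 0.786, 6.47 and 3.42 CPM. Its lowest library in the run was 27.4 times its highest elsewhere, which was library JM141, the one library of its run that stood apart. The higher-numbered run and both 9-week groups overlapped. Per length, with a gene length of 4503 bp implied by the authors' deposited RPKM table, it reached 225 CPM per kb in the lower-numbered run, against 1.07 CPM per kb in the other libraries, and was the highest of the 25 there on that scale. The next by this measure was the gene of rank 15, with 37.8 CPM per kb in the run.

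The second-ranked gene, Nfu_g_1_012354, divided the run itself. It had 162, 203, 220, 72.4 and 75.7 CPM in libraries JM132 to JM136, so libraries JM135 and JM136 lay well below the other 3. The higher-numbered run had 9.08, 10.3, 14.95, 9.12 and 9.67 CPM. Exercised livers at 9 weeks had 13.6, 6.19, 4.99, 9.20 and 5.52 CPM and unexercised ones 10.4, 13.7, 5.86, 10.1 and 8.52 CPM. Its ratio was 4.72, and the 3 sets outside the run overlapped.

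The gene ranked 3 carries the identifier number just below that of the first-ranked gene, the only such pair among the 25. It had 11.2, 13.9, 13.1, 13.6 and 12.9 CPM in libraries JM132 to JM136, and 0.396 to 1.39 CPM in the higher-numbered run. It had 0.669 to 1.52 CPM in exercised 9-week livers and 0.606 to 2.13 CPM in unexercised 9-week livers. Library JM141 was the highest of the higher-numbered run in both genes, with 24.3 CPM of the first-ranked gene and 1.39 CPM of the third. In the third that value lay within the range of the 9-week livers. Where the identifiers lie in the genome, and whether reads could be shared between them, was not determined here. After these 3 the ratios ran without a wide gap, from 2.77 at rank 4 to 2.03 at rank 25.

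Some genes were almost constant within the run and others spread widely. The coefficient of variation (SD divided by mean) over libraries JM132 to JM136 had a median of 17.7% over the 25 genes, from 3.12% to 88.6%, against a median of 23.2% over the 14161 genes in the same range of mean CPM. A low spread is favoured by a rule on the lowest library. Rank 20 had 20.1, 20.3, 19.1, 19.3 and 20.5 CPM in libraries JM132 to JM136, and 5.65 to 8.40 CPM in the higher-numbered run. It had 4.50 to 6.39 CPM in exercised 9-week livers and 5.23 to 8.82 CPM in unexercised 9-week livers. Rank 13 was as even, with 11.5 to 12.6 CPM in the run.

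At the other end, 6 genes had a range of 2-fold or more within the run. Rank 9 had 1.77, 3.21, 2.36, 14.2 and 8.24 CPM in libraries JM132 to JM136, against 0.0591 to 0.419 CPM in the other 15, where its lowest count was 2 reads. Rank 15 had 41.7, 69.6, 49.5, 204 and 55.4 CPM in libraries JM132 to JM136, with a mean of 84.0 CPM that library JM135 pulled up. It had 8.01 to 18.1 CPM in the higher-numbered run, 6.68 to 18.3 CPM in exercised 9-week livers and 5.99 to 18.2 CPM in unexercised 9-week livers. Library JM135 was thus high in both of these genes and the lowest of the run in the second-ranked one.

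Libraries JM135 and JM136 both lay below libraries JM132 to JM134 in 8 of the 25 genes and both above them in 3. Among all 14161 genes of this abundance the shares were 31.8% below and 24.7% above. With library totals both lay below in 2 of the 25 and above in 15, against 7.80% and 55.1% of all these genes, so the order of these libraries moved with the scaling in the 25 genes as in the rest. Of the 5 libraries, JM134 was the highest in 8 genes and JM135 in 7, and the lowest was JM135 in 7 genes, JM132 and JM134 in 6 each.

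**Figure D2:**
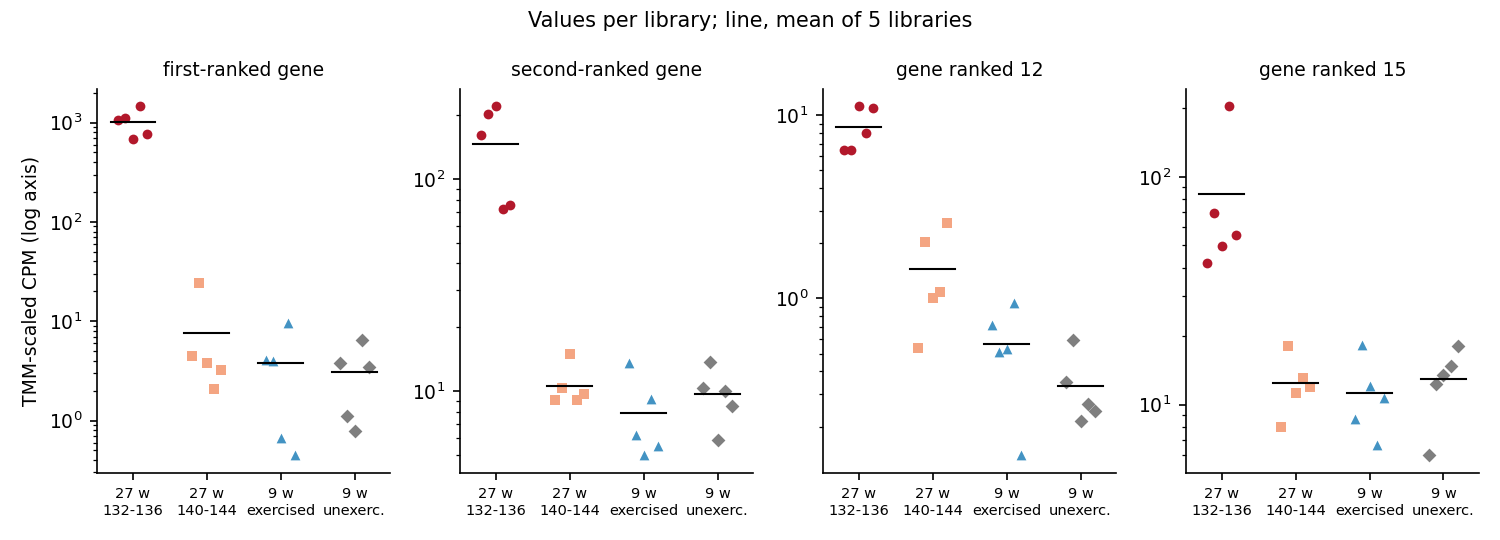
TMM-scaled CPM (log axis) of the genes of rank 1, 2, 12 and 15, with 1 point per library and a line at the mean of each set of 5. Library JM141 is the high point of the higher-numbered run at rank 1 with 24.3 CPM, and library JM135 is the high point of the lower-numbered run at rank 15 with 204 CPM.

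The choice was repeated with 1 library of the run left out of the lowest value only. The scaling and the mean over all 20 libraries stayed as they were. Genes that also pass in the library left out are by construction the same 25, so the repeat shows only how many more genes that library kept off the list. Without library JM132, JM133, JM134 or JM136 the rule took 26 to 28 genes. Without library JM135 it took 40, and all 40 were higher in library JM135 than in any library outside the run. For 25 of the 40 the rule had fixed this, and the share among all genes was not counted. In each of the other repeats, too, every gene taken was higher in the library left out than in any library outside the run. The rule had fixed this for 25 of the 26 to 28 genes, and the share among all genes was not counted there either. With libraries JM135 and JM136 both left out, chosen as an alternative after the data were seen, 105 genes met the rule. The other 15 libraries set the upper bound. Library JM141 was the highest of these in 6 of the 25 genes and library JM125, an unexercised one, in 5, against 7.78% and 10.5% of all genes of this abundance. When the scaling and the rule were run anew without library JM141 it took 39 genes, without library JM142 it took 38, and without library JM135 it took 39.

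The same rule was applied to the other sets of 5 libraries, without the limit on the 9-week means. It took 74 genes for the lower-numbered run, 1 for the higher-numbered run, 0 for exercised and 0 for unexercised livers at 9 weeks. For each set but the lower-numbered run, the 15 libraries to exceed included JM132 to JM136. The counts of the sets therefore do not stand on equal terms. Genes in the opposite pattern, whose lowest value elsewhere was over 2 times the highest in the run, numbered 58 with the limit, against the 25 raised. With library totals in place of TMM this order turned round, to 25 lowered and 58 raised. Only 12 of the 25 genes were among those 58 raised, since 12 of the 25 then fell outside the limit on the 9-week means and 4 had a ratio of 2 or less, 3 of them for both reasons.

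At the edge of the list, the gene of rank 25 had 21.5 CPM as its lowest value in the run and 10.4 CPM as its highest elsewhere, a ratio of 2.03. The next gene, just outside, had 5.11 and 2.32 CPM, a ratio of 1.99. The limit of 2 thus cuts through a continuous series: 161 genes passed at 1.5 times and 3 at 3 times. The rule without the added 0.5 CPM in the ratio of lowest to highest, an alternative chosen after the data were seen, took 31 genes, with all 25 among them.

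The levels of these genes in the higher-numbered run, also of 27-week exercised fish, were compared with those at 9 weeks. The rule did not use this difference itself. It bounds these 15 libraries from above and also holds the 9-week means within 1.3-fold, which bears on the exercised reference. Of the 49 genes that only the 9-week limit removed, 36 were called higher here than in exercised livers (edgeR adjusted p under 0.05). The count among the 25 therefore depends in part on the choice. All 25 genes passed the filter on low counts, and 24 would have passed in the 15 libraries alone. The remaining gene entered these tests only through the lower-numbered run and stays in the counts out of 25. In 6 genes, ranks 5 and 12 among them, the mean outside that run was below 1 CPM. They met the rule's limit of 1 CPM only with that run. Against exercised livers at 9 weeks, 4 of the 25 were higher in the higher-numbered run and 0 lower (edgeR quasi-likelihood test, adjusted p under 0.05). Over all 17118 genes tested, 9.39% were higher, 7.61% lower and 17.0% changed in either direction, so that 4 of 25 in either direction lies near the background. At an unadjusted p under 0.05, 9 of the 25 were higher and 0 lower, beside 15.4% higher and 14.9% lower of all genes. The DESeq2 Wald test called 6 higher and 0 lower (1948 and 1569 of all 17118 genes) and limma-voom 2 higher and 0 lower (1454 and 1181). The count of 4 was 1 without library JM144 or JM119, 2 without JM141, JM142, JM117, JM118 or JM121, and 7 without JM120.

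The median log2 fold change of the 25 genes in this comparison was 0.39, against -0.01 over all genes tested, and 22 of the 25 had a value above 0, against 8392 of all genes tested. The count above 0 was 22 with each of the 4 scalings tried. These values are far below those of the lower-numbered run, where the median log2 fold change from exercised livers at 9 weeks was 2.46, a number that the rule fixed in part.

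Nfu_g_1_003095, of rank 12, had the largest called rise of these. It had 0.536, 2.03, 1.01, 1.09 and 2.58 CPM in libraries JM140 to JM144. It had 0.716, 0.510, 0.529, 0.945 and 0.139 CPM in exercised livers at 9 weeks, and 0.351, 0.591, 0.214, 0.266 and 0.243 CPM in unexercised ones. Of the 5 libraries of the run, 4 lay above both 9-week groups and library JM140 fell within them. The log2 fold change was 1.36 ± 0.43 from exercised livers (SE, with an adjusted p = 0.035 by edgeR) and 2.14 ± 0.45 from unexercised livers (SE, with an adjusted p = 0.0053 by edgeR). The first of these calls was lost without library JM144 (log2 fold change 1.05, adjusted p = 0.116 by edgeR), without library JM141 (1.20, adjusted p = 0.088) and without exercised library JM118, JM119 or JM121 (adjusted p = 0.074, 0.071 and 0.064). It was also lost with library totals (adjusted p = 0.058), with limma-voom (0.077) and in a fit of the 2 compared sets alone (0.079). In libraries JM132 to JM136 this gene stood at 6.5, 6.47, 11.2, 7.99 and 10.9 CPM, above every library of the higher-numbered run.

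Nfu_g_1_006992, of rank 22, showed a smaller rise. It had 4.90, 5.06, 5.37, 4.76 and 3.85 CPM in libraries JM140 to JM144, against 3.25, 2.68, 3.30, 3.09 and 4.18 CPM in exercised livers at 9 weeks. Library JM144 lay below exercised library JM121, and the other 4 of the run lay above all 5. The log2 fold change was 0.54 ± 0.13 (SE, with an adjusted p = 0.0087 by edgeR), and the call held in each of 20 fits with 1 library left out (adjusted p up to 0.029). Against unexercised livers it was 0.33 ± 0.13 and missed the threshold (SE, with an adjusted p = 0.096 by edgeR). In libraries JM132 to JM136 it had 11.6 to 13.95 CPM. The other 2 called genes, of ranks 16 and 17, had log2 fold changes of 0.45 ± 0.15 and 0.48 ± 0.16 (SE, with an adjusted p = 0.043 for each by edgeR). Each lost its call in 8 of the 20 such fits. For rank 16 these were the fits without library JM140, JM142, JM143, JM144, JM117, JM119, JM120 or JM121. For rank 17 they were those without library JM140, JM141, JM142, JM144, JM117, JM118, JM119 or JM121. Among 8 other alternatives rank 16 lost its call in 4 and rank 17 in 3. Both lost it with library totals (adjusted p = 0.083 and 0.101 by edgeR), with upper-quartile scaling and without the filter on low counts.

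The first- and second-ranked genes did not pass this test. Nfu_g_1_007386 had a log2 fold change of 1.03 ± 0.76 in the higher-numbered run from exercised livers (SE, with an adjusted p = 0.39 by edgeR), which became -0.14 without library JM141. That of Nfu_g_1_012354 was 0.43 ± 0.33 (SE, with an adjusted p = 0.42 by edgeR).

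**Figure D3:**
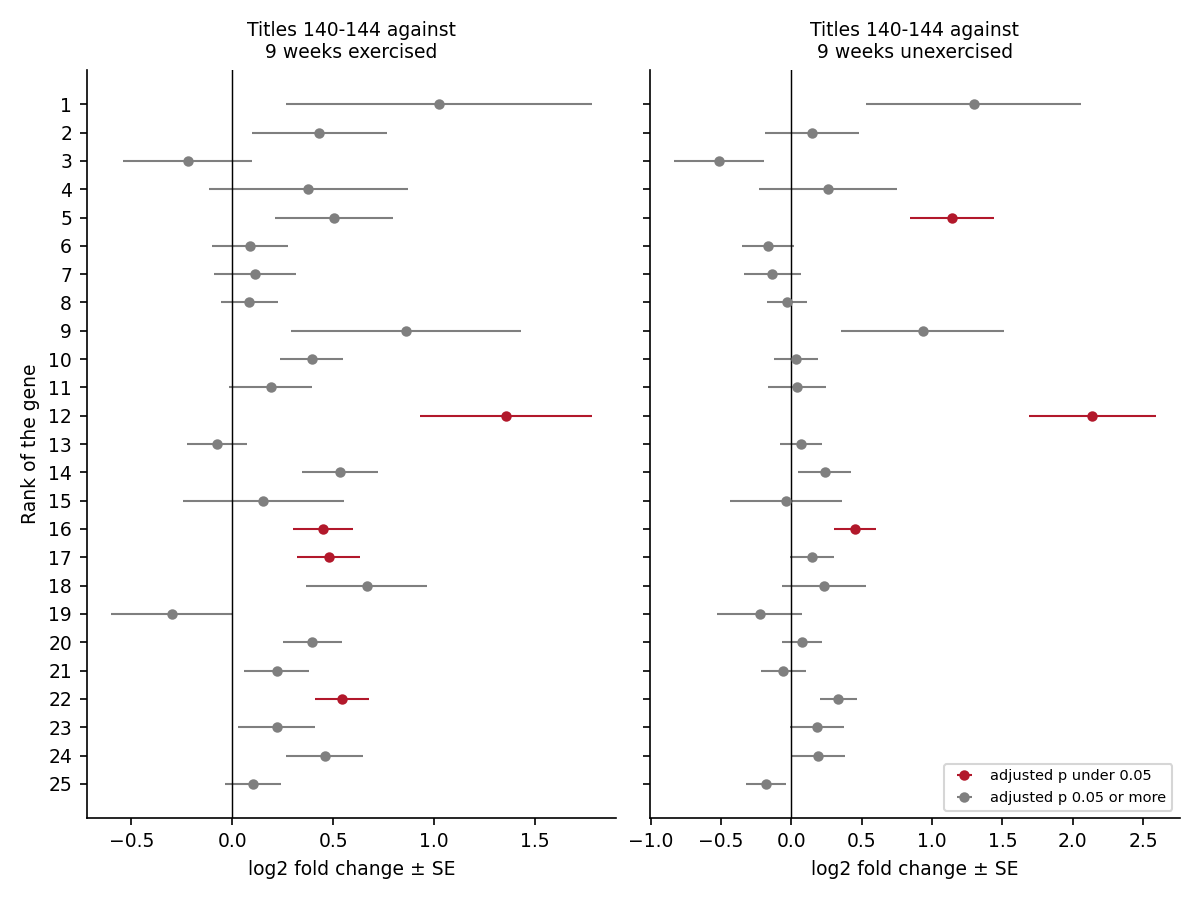
Log2 fold changes (point) with SE (bar) of the 25 genes in the higher-numbered run against exercised (left) and unexercised livers (right) at 9 weeks, by rank. Red marks an edgeR adjusted p under 0.05, which 4 genes reached on the left and 3 on the right, all of them above 0.

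Against unexercised livers at 9 weeks, 3 of the 25 genes were higher in the higher-numbered run and 0 lower (edgeR adjusted p under 0.05), beside 7.48% higher, 7.30% lower and 14.8% in either direction of all genes. At an unadjusted p under 0.05, 4 were higher and 0 lower, beside 14.6% higher and 15.6% lower of all genes. The DESeq2 Wald test called 3 higher and 0 lower (1700 and 1600 of all genes) and limma-voom 1 higher and 0 lower (1102 and 996). Besides Nfu_g_1_003095 these were the genes of rank 5, with a log2 fold change of 1.14 ± 0.30 (SE, with an adjusted p = 0.017 by edgeR), and of rank 16, with 0.45 ± 0.15 (SE, with an adjusted p = 0.046 by edgeR). Rank 5 had 0.498 to 1.22 CPM in the higher-numbered run, all above the 0.185 to 0.464 CPM of unexercised livers, and 0.330 to 0.806 CPM in exercised livers at 9 weeks. It missed the threshold without library JM141 (adjusted p = 0.051), with library totals (0.053) and with limma-voom (0.055). Rank 16 missed it in 12 of 20 fits with 1 library left out, with adjusted p up to 0.113: those without library JM133, JM134, JM140, JM142, JM143, JM144, JM117, JM119, JM124, JM126, JM127 or JM128. It also missed it in 5 of 8 other alternatives. Among these, library totals gave rank 16 a log2 fold change of 0.15 (adjusted p = 0.479 by edgeR). The median log2 fold change was 0.15 over the 25 genes and -0.02 over all genes, and 17 of the 25 lay above 0, beside 8151 of all 17118 genes. With library totals 6 of the 25 lay above 0, with a median of -0.16. All genes moved with them, to 4168 above 0 and a median of -0.32. Under library totals edgeR called 1 of the 25 higher and 1 lower, beside 484 and 3805 of all 17118 genes. The median of the 25 was above that of all genes under both scalings. The 2 comparisons share the libraries of the higher-numbered run and are not independent.

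With the groups as labelled, all 25 genes were higher in the 10 libraries at 27 weeks than in exercised livers at 9 weeks (edgeR adjusted p under 0.05, beside 17.3% higher and 30.4% in either direction of all genes). The rule fixed this in large part, since it placed 5 of the 10 libraries on top. Limma-voom called 14 of the 25 in the same comparison. Both fits took the 10 libraries together, so the difference between the runs counted as spread in each. Why limma-voom called fewer was not tested. All 25 were also called higher in the lower-numbered run against exercised livers (29.9% of all genes higher, 58.0% called in either direction), unexercised livers (26.5% and 51.3%) and the higher-numbered run (26.9% and 50.4%). Nothing is read from these counts.

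Exercise at 9 weeks changed 0 of the 25 genes (edgeR adjusted p under 0.05; 6.19% of all genes were called), with 1 higher and 3 lower at an unadjusted p under 0.05 (1617 and 2026 of all 17118 genes). DESeq2 and limma-voom called 0 too, and edgeR with library totals 4 lower, beside 2087 of all genes. The limit of 1.3-fold on these means makes that a property of the choice. Within the limit, 19 of the 25 genes had a lower mean in exercised than in unexercised livers, with a median ratio of 0.876. The same share over all genes within the limit was not counted. By edgeR log2 fold change 18 of the 25 lay below 0, beside 8589 of all 17118 genes, inside the limit or not.

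The limit removed genes almost wholly from one side. Of the 74 genes with a ratio over 2 in this range of abundance, 49 lay outside the limit. In 48 of these the exercised mean was the lower and in 1 the higher, whereas 2073 of all 14161 genes of this abundance lay beyond the limit with a lower and 1549 with a higher exercised mean. For the 74 genes together the exercise difference was not used by the ratio, which takes the highest of all 15 other libraries. Some of the 74 met the limit of 1 CPM only with the lower-numbered run, 6 of the 25 and some of the 49 among them. They stay in the counts out of 74. Exercised livers were lower than unexercised ones in 29 of the 74 and higher in 0 (edgeR adjusted p under 0.05), beside 4.38% lower and 1.82% higher of all genes. At an unadjusted p under 0.05, 47 were lower and 1 higher (2026 and 1617 of all 17118 genes). The DESeq2 Wald test called 33 lower and 0 higher (1073 and 694), and limma-voom 23 lower and 0 higher (576 and 297). The median log2 fold change was -0.58, against 0.00 over all genes, and 66 of the 74 lay below 0.

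With library totals the 74 genes had a median of -0.84, while that of all genes moved to -0.25. The count of 29 was 17 without unexercised library JM125, and 19, 19 and 18 without exercised library JM117, JM118 or JM119. In the one gene on the other side, and in the 25 kept, the ratio of exercised to unexercised means ran up to 1.46 and 1.28. In the higher-numbered run 40 of the 74 were higher and 0 lower than in exercised livers, beside 9.39% and 7.61% of all genes, with a median log2 fold change of 0.75. Against unexercised livers 6 were higher and 2 lower, beside 7.48% and 7.30%, with a median of 0.07. With library totals 2 were higher and 7 lower, beside 484 and 3805 of all genes. The median was then -0.25, against -0.32 over all genes. The comparison with exercised livers shares the exercised libraries with the exercise difference and is not independent of it.

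**Figure D4:**
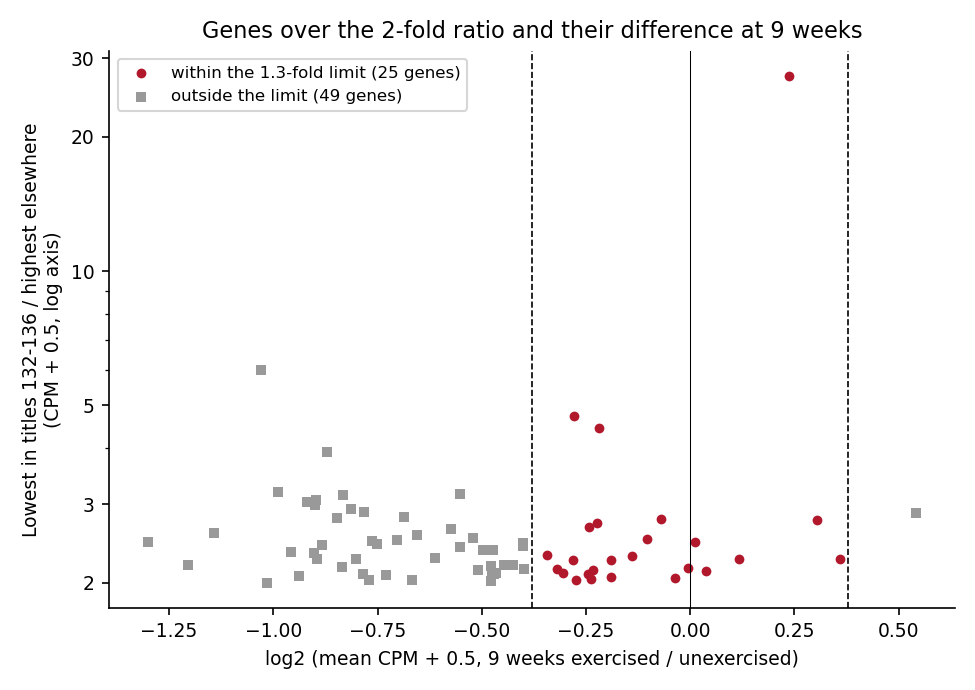
Ratio of the lowest value in titles JM132 to JM136 to the highest elsewhere (log axis) against the log2 ratio of exercised to unexercised means at 9 weeks, for the 74 genes with a ratio over 2. Dashed lines mark the 1.3-fold limit, with the 25 genes described here between them, 48 genes to the left and 1 to the right.

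Each library outside the run was also placed by how far the 25 genes lay above their mean log2 CPM in these 15 libraries. The median over genes ran from -0.01 to 0.23 in the higher-numbered run, from -0.26 to 0.06 in exercised 9-week livers and from -0.09 to 0.22 in unexercised 9-week livers, and the ranges overlapped. By this median libraries JM141 and JM125 were the highest. By the number of the 25 genes above that mean the order was JM141 with 22, JM144 with 21 and JM125 with 19. Of all 14161 genes of this abundance, 48.8%, 47.9% and 52.1% lay above their own such mean in these libraries. Library JM125 also had the lowest depth, 22422152 counts, and the largest TMM factor outside the lower-numbered run, 1.21. The part of these in its position was not tested. In libraries JM132 to JM136 the same measure was 1.85 to 2.11, which the rule had set.

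The implied length of the 25 genes had a median of 2249 bp, from 653 to 9076 bp, against 2868 bp over the 14006 genes of this abundance with a length. Of the 25, 10 were 3000 bp or longer, against 6708 of the 14006. Length was not used by the rule, and the difference was not tested.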

How the data were processed

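Raw counts per gene identifier in all 20 libraries are as the authors deposited them. The submitters' processing notes name featureCounts 1.4.6-p4, bcl2fastq 1.8.4 and STAR 2.4.1d. Build, annotation, strand setting and handling of multi-mapped reads: not given in the sources used here. Genes that overlap or have a near-identical copy are therefore uncertain. A table that the authors deposited as RPKM is treated as a score: its library totals were cycled down the rows, so it served only for gene lengths, taken from values of 0.5 or more (spread over libraries at most 0.0399%, CV, in the 25 genes).

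CPM were scaled with TMM factors over all identifiers. Tests used edgeR 4.0.16 in R 4.3.3 with filterByExpr, robust quasi-likelihood fits of 4 sets (3 labelled groups, the 27-week one split by title number), two-sided F-tests and Benjamini-Hochberg adjustment over all 17118 genes, threshold 0.05. The 27-week group as labelled was fitted with the 3 groups. The standard error is the log2 fold change divided by the root of F. DESeq2 1.42.0 and limma 3.58.1 were alternatives. The fit and the rule were also run on simulated data with known changes. Fewer genes differed there than in these data, so nothing is read from that run. Named are the 2 genes of highest rank and the 2 with the largest rise (none fell) among those called in the higher-numbered run against exercised 9-week livers; the others go by rank, since no symbols were matched to the identifiers here. The gene of rank 15 was plotted after its values were seen. The genes and lists were chosen with earlier results of these data known. Marker lists of cell types need symbols and were not run.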

Additional observations from a re-analysis of the deposited data

Results flagged for a closer look

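In 5 of 116 groups of 5 values, 1 library stood apart from the other 4. The cut-off used would flag about 1 in 20 groups of independent, normally distributed values. These genes were chosen by their lowest and highest values, so that rate need not hold here. Rank 15 had 204 CPM in library JM135, against 41.7 to 69.6 CPM in the other libraries of the lower-numbered run. Rank 17 had 41.6 CPM in library JM134, against 23.3 to 27.0 CPM in the rest of that run. In the higher-numbered run Nfu_g_1_007386 had 24.3 CPM in library JM141, against 2.06 to 4.48 CPM, and Nfu_g_1_012354 had 14.95 CPM in library JM142, against 9.08 to 10.3 CPM. Rank 24 had 4.84 CPM in unexercised library JM125, against 2.54 to 3.18 CPM in the other unexercised libraries at 9 weeks. In ranks 1, 2 and 24 that library also set the upper bound of the rule.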

How the results depend on the processing

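The rule took 25 genes. It took 58 with library totals, 161 at 1.5 times, 3 at 3 times, 74 without the limit on the 9-week means and 15 at a mean of 5 CPM or more, and 21 to 39 with 1 library left out. Without libraries JM135 and JM136 together it took 105. With DESeq2 size factors, upper-quartile scaling, and 0.1 or 1 CPM added the count stayed within 1.5 times, but only 15 of the 25 genes were kept with upper-quartile scaling and 17 with 1 CPM added. Genes of the opposite pattern numbered 25 with library totals, against 58. Against exercised livers at 9 weeks, the 4 genes called in the higher-numbered run were 2 with upper-quartile scaling, 1 with library totals, 2 without the filter on low counts and 2 with limma-voom, and 1 to 7 with 1 library left out. Against unexercised livers the 3 were 1 with limma-voom, and 2 to 3 with 1 library left out. They were 2 with upper-quartile scaling, without the filter on low counts and in a fit of the 2 compared sets alone. Library totals gave 1 higher and 1 lower. Over the labelled groups limma-voom called 14 of 25, and 20 to 25 were called with 1 library left out. Of the 74 genes with a ratio over 2, 46 were lower with exercise under library totals, beside 2087 of all 17118 genes. With TMM these counts were 29 and 749. With 1 library left out, 17 to 33 of the 74 were lower. The shares over all genes were not counted for the fits with 1 library left out, nor for limma-voom over the labelled groups. For Nfu_g_1_007386 the log2 fold change in the higher-numbered run from exercised livers ran from -0.14 without library JM141 to 1.74 without library JM120, the only reversal among the genes followed through the alternatives (ranks 1, 2, 5, 12, 16, 17 and 22). Over all 25, library totals took the number above 0 against unexercised livers to 6, against 17. Over all 17118 genes the same change of scaling took it to 4168, against 8151. The cause of these changes was not tested. The calls of the lower-numbered run stayed at 25 in all alternatives run. No paired analysis was possible because the labels give the libraries no shared replicate numbers. Genes of rank 4, 5, 9 and 12 rest on few reads outside the run, down to 6, 5, 2 and 5 counts.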
